A study of Homo sapiens with 40 samples.

Results

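The 10 genes described here act at the output end of the integrated stress response and were followed in all 40 RNA-seq libraries of the series. They were chosen by name, as effectors and secreted factors linked to the transcription factor ATF4, with CHAC1 and CTH noted beforehand as induced by OL9-119. They are CHAC1, CTH, CBS, SESN2, DDIT4, GDF15, FGF21, STC2, VEGFA and INHBE. They make up 10 of the 58395 genes in the count table, and all 10 were among the 28922 genes that had at least 10 counts summed over the libraries and were tested. The cells were HEK293A, an adherent human embryonic kidney line, as wild type (WT) or as a PARP1-KO line that is 1 clone with part of PARP1 deleted by CRISPR/Cas9. Both genotypes were left untreated, given 0.1% DMSO as solvent, given topotecan (Tpc), given 5 µM OL9-119, or given Tpc with OL9-119, each for 5 to 5.5 h, with 4 libraries per group. Tpc was used at 100 nM in WT and at 50 nM in PARP1-KO, and every drug group also carried 0.1% DMSO. Tpc traps the TOP1 cleavage complex on DNA, and OL9-119 is a usnic acid derivative that inhibits TDP1, the enzyme that clears such complexes. The sample labels call the 4 libraries of a group biological replicates whereas the study's methods call them technical, so the p-values measure only the spread between these libraries.

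In the integrated stress response, several kinases that sense amino acid shortage, unfolded protein, haem lack or double-stranded RNA phosphorylate the initiation factor eIF2α. General translation then falls while the ATF4 mRNA is translated more, and ATF4, often with DDIT3 (CHOP) or other partners, switches on genes for amino acid supply, redox balance and growth control. The genes described here are the far end of that pathway. CHAC1, CTH and CBS act on glutathione and cysteine, SESN2 and DDIT4 restrain the growth kinase mTORC1, and GDF15, FGF21, STC2, VEGFA and INHBE encode secreted proteins.

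All 10 are protein-coding and are placed here by GENCODE 44 on hg38. The cysteine and glutathione genes are CHAC1 (ENSG00000128965, chr15:40952962-40956512, plus strand), CTH (ENSG00000116761, chr1:70411218-70439851, plus strand) and CBS (ENSG00000160200, chr21:43053191-43076943, minus strand). The mTORC1 inhibitors are SESN2 (ENSG00000130766, chr1:28259518-28282491, plus strand) and DDIT4 (ENSG00000168209, chr10:72273919-72276036, plus strand). The secreted factors are GDF15 (ENSG00000130513, chr19:18374731-18389176, plus strand), FGF21 (ENSG00000105550, chr19:48755524-48758333, plus strand), STC2 (ENSG00000113739, chr5:173314723-173328447, minus strand), VEGFA (ENSG00000112715, chr6:43770184-43786487, plus strand) and INHBE (ENSG00000139269, chr12:57452323-57459280, plus strand).

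Promoter sequences are shown for the 3 genes whose upstream stretch held a match to the ATF4-type or hypoxia-type core, since both pathways are known to act on these genes. RefSeq (GRCh38.p14) windows were found for 8 of the 10 genes. VEGFA and INHBE were not searched. The letters TGATGNAA, the core of the element that ATF4 with a C/EBP partner binds, were searched on both strands from 250 bases before to 50 bases after each start, and 3.62% of 35116 promoters held them. The letters ACGTG, the core bound by hypoxia-inducible factors, were held by 21.4%. The 250 bases before the start are given 5′ to 3′ on the gene's strand, with the match in capitals. CHAC1 has its match at positions -209 to -202 on the opposite strand (window chr15:40953221-40953470, plus strand), FGF21 has the same 8 letters at -54 to -47 (chr19:48755274-48755523, plus strand), and DDIT4 has ACGTG at -125 to -121 (chr10:72273674-72273923, plus strand).
CHAC1: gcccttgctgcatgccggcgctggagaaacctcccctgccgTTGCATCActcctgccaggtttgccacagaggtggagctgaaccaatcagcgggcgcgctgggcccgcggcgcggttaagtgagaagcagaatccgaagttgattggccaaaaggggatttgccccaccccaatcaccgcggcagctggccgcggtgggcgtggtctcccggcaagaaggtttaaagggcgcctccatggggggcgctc
FGF21: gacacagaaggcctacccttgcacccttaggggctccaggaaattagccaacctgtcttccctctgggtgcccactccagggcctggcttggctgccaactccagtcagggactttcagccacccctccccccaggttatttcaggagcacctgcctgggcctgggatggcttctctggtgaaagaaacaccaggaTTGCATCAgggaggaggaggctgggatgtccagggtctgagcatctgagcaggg
DDIT4: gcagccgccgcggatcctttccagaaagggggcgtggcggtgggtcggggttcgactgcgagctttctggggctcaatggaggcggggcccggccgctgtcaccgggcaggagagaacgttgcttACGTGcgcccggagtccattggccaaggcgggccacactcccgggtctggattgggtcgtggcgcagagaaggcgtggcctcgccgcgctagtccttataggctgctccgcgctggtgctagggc
CHAC1 and FGF21 thus carry the same letters, and over the 40 libraries CHAC1 had 6928 counts on a transcript of 1520 bases while FGF21 had 380 on 1347 bases. The windows of SESN2, CTH, STC2, GDF15 and CBS held neither core. The starts used are those of RefSeq and can lie inside the GENCODE spans given above. This was so for CHAC1 and for GDF15, whose 250 bases before the start were chr19:18385908-18386157. No other start of these 2 genes was searched, while CBS had several windows. The antioxidant response core TGACNNNGC was matched in STC2 and CBS and in 13.3% of all promoters. CRE (TGACGTCA, in 1.85%) and the ER stress element ERSE (in 0.0769%) were matched in none of the 8.

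The libraries held 3455043 to 14398670 counts in WT and 6436740 to 20379777 in PARP1-KO. PARP1 itself lay at 737 to 887 CPM (counts per 1000000 of the TMM-adjusted library total) in the 20 WT libraries and at 30.4 to 46.6 CPM in the 20 PARP1-KO libraries, so each library went with its label. TOP1 and TDP1, the targets of Tpc and OL9-119, had log2 fold changes of 0.22 (edgeR adjusted p = 0.128) and 0.02 (adjusted p = 1) between PARP1-KO and WT in DMSO. In untreated cells these were 0.33 (edgeR adjusted p = 0.0154) for TOP1 and 0.37 (edgeR adjusted p = 0.31) for TDP1. All 4 untreated PARP1-KO libraries were above all 4 untreated WT libraries for TOP1, as for 11.3% of all genes. Cell type markers are given as counts per 1000000 of the unadjusted library total. Of the markers of HEK293 cells, KRT8, KRT18, VIM and NEFL had medians of 274 to 750 CPM and LIN28B of 61.5 CPM. The others were low, with medians of 7.15 CPM for NEFM, 1.38 CPM for PAX2 and 0.333 CPM for INA. Of 15 markers of blood cells, endothelium, hepatocytes, fibroblasts and mature kidney tubule, 6 had a median of 0 (PTPRC, CD3E, MS4A1, APOA1, DCN and UMOD) and 7 had medians of 0.0446 to 5.6 CPM, with LRP2 of the tubule highest and VWF of the endothelium at 3.27 CPM. The fibroblast collagen COL1A1 (9.01 to 40.6 CPM) and the tubule water channel AQP1 (6.66 to 20.7 CPM) were detected in every library. At equal depth the WT libraries held 15510 to 20619 detected genes and the PARP1-KO libraries 17970 to 21571. In bulk RNA, a higher level per cell and a larger share of expressing cells cannot be told apart.

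**Figure D1:**
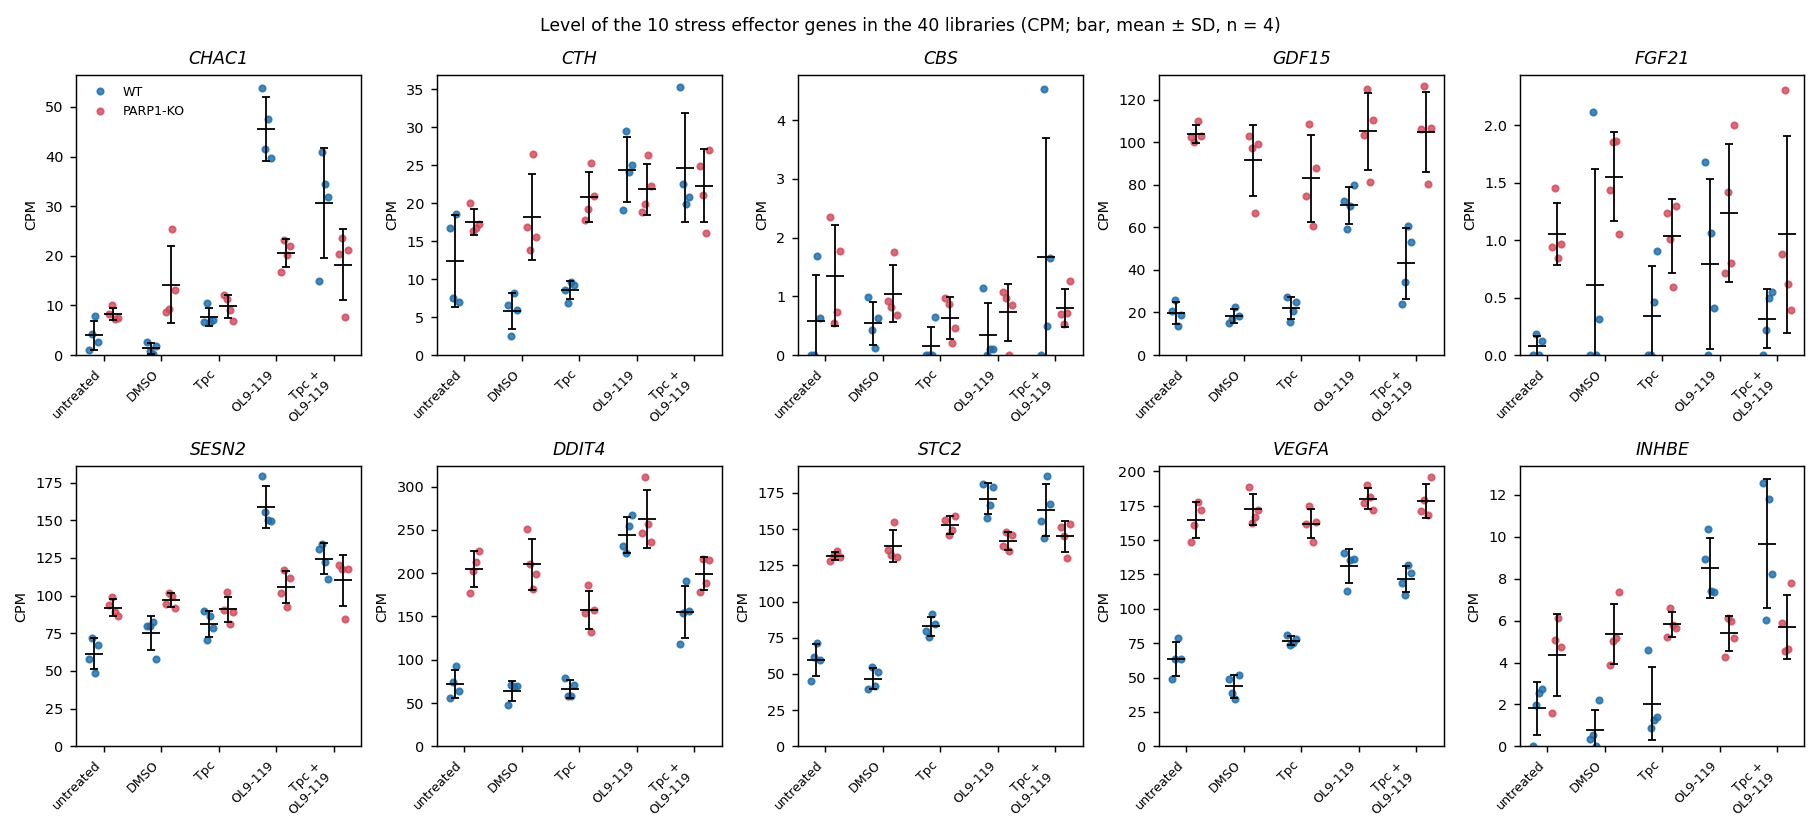
Level of each gene in CPM by treatment, with WT in blue and PARP1-KO in red; each point is 1 library, and the black bars are the mean ± SD (n = 4). In WT all 4 libraries of OL9-119 alone stand above the untreated and DMSO libraries for 8 of the 10 genes. Of all tested genes, 3.12% do so against DMSO and 2.99% against untreated cells, each taken alone. The values of OL9-119 alone led to the choice of genes. In PARP1-KO the highest group mean is 1.11 (VEGFA) to 2.48 (CHAC1) times the lowest.

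The comparison of PARP1-KO with WT asked which of these genes differ between the knockout clone and the WT line when no drug is present. Whether such differences come from the loss of PARP1 or from other features of the clone was not tested, since no other knockout clone was sequenced. In DMSO, 7 of the 10 genes were higher in PARP1-KO (edgeR quasi-likelihood test, Benjamini-Hochberg adjusted p below 0.01) and 0 were lower, against 6.67% of all tested genes called higher. Their log2 fold changes ran from 1.57 (STC2) to 3.29 (CHAC1). For 8 of the 10, all 4 PARP1-KO libraries were above all 4 WT libraries (12.3% of all genes). The median over the 10 genes was 1.68, and that over all tested genes was 0.19. In untreated cells, which are other libraries, 5 of the 10 were called higher (5.97% of all genes) and 6 did not overlap (11.3%), and GDF15, DDIT4, STC2 and VEGFA were called in both settings. The number of detected genes was also higher in PARP1-KO. With that number as a covariate the median over all genes was 0.03 and 7 of the 10 were called.

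Among the cysteine and glutathione genes, CHAC1 differed most in DMSO. CHAC1 encodes a cyclotransferase that breaks down glutathione. Its level was 2.7, 0.739, 0.12 and 1.88 CPM in WT with DMSO, from 38, 7, 1 and 12 counts, and 8.72, 9.37, 25.4 and 13.2 CPM in PARP1-KO with DMSO. All 4 knockout libraries were above the WT ones, and the log2 fold change was 3.29 ± 0.43 (SE, adjusted p = 2.75e-08). In untreated cells CHAC1 was at 0.954, 4.32, 7.90 and 2.62 CPM in WT and at 8.31, 9.99, 7.32 and 7.51 CPM in PARP1-KO. Those ranges overlapped through WT replicate 3, and the log2 fold change of 1.08 ± 0.39 (SE) had an adjusted p of 0.0401. Without that library it was 1.68 (edgeR adjusted p = 0.00218). It was also called with no filter on low counts (edgeR adjusted p = 0.00158) and with length and GC offsets (0.00944). The CHAC1 ratio between genotypes was thus 10.4 in DMSO and 2.10 in untreated cells. The WT mean was 3.95 CPM untreated and 1.36 CPM in DMSO, and the PARP1-KO mean was 8.28 CPM untreated and 14.2 CPM in DMSO, where replicate 3 was highest at 25.4 CPM.

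CTH, the cystathionine γ-lyase that releases cysteine at the end of transsulfuration, showed the same dependence on the control. CTH was at 6.61, 2.53, 8.15 and 5.95 CPM in WT with DMSO and at 16.9, 13.8, 26.5 and 15.6 CPM in PARP1-KO with DMSO, without overlap. The log2 fold change was 1.64 ± 0.28 (SE, edgeR adjusted p = 6.13e-06). Untreated WT libraries had 16.7, 7.47, 18.6 and 6.99 CPM, which falls into a high and a low pair, against 20.1, 16.3, 16.7 and 17.2 CPM in untreated PARP1-KO. There the log2 fold change was 0.49 ± 0.26 (SE, adjusted p = 0.201). At equal depth the high pair held 16922 and 15580 detected genes and the low pair 19779 and 19917. A link between that number and the CTH level was not tested. CBS, which makes cystathionine in the step before CTH, was barely detected, with 333 counts over the 40 libraries and 0 counts in 7 of 20 WT libraries. A near-identical copy of CBS exists in the hg38 assembly and reads may have been split between them, so the CBS level is uncertain.

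The mTORC1 inhibitors differed in size of change. DDIT4 (REDD1), which acts through the TSC complex, was at 47.3, 71.3, 68.2 and 69.4 CPM in WT with DMSO and at 251, 210, 181 and 199 CPM in PARP1-KO with DMSO. The log2 fold change was 1.72 ± 0.15 (SE, edgeR adjusted p = 3.19e-14). In untreated cells DDIT4 had means of 72.0 ± 16.01 CPM in WT and 205 ± 20.6 CPM in PARP1-KO (SD, n = 4), a log2 fold change of 1.51. All 20 PARP1-KO libraries, drug-treated ones included, were above all 8 WT libraries without drug for DDIT4. SESN2, a leucine sensor that acts on GATOR2, was at 80.1, 79.9, 82.5 and 58.2 CPM in WT with DMSO and at 94.1, 102.02, 99.9 and 91.9 CPM in PARP1-KO with DMSO. These did not overlap, and the log2 fold change was 0.37 ± 0.13 (SE, edgeR adjusted p = 0.034), beside 0.19 for the median gene. With length and GC offsets SESN2 was called in DMSO, at 0.55 (edgeR adjusted p = 6.5e-05), which brought the called genes to 8 of 10. In untreated cells SESN2 was higher in PARP1-KO by a log2 of 0.58 (adjusted p = 0.000458), a call that was lost when only the 8 compared libraries were fitted (edgeR adjusted p = 0.0119).

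Of the secreted factors, GDF15, STC2 and VEGFA separated the genotypes completely in the absence of drug. GDF15, a stress cytokine that signals through GFRAL in the hindbrain, was at 15.2, 17.0, 22.8 and 18.2 CPM in WT with DMSO and at 102.97, 97.3, 66.8 and 98.9 CPM in PARP1-KO with DMSO. The log2 fold change was 2.33 ± 0.21 (SE, edgeR adjusted p = 1.55e-13), and in untreated cells it was 2.39 ± 0.20. STC2, stanniocalcin 2, was at 39.3, 54.9, 41.8 and 51.2 CPM in WT with DMSO and at 136, 132, 155 and 131 CPM in PARP1-KO with DMSO, a log2 fold change of 1.57 ± 0.12 (SE, adjusted p = 1.18e-15 by edgeR). Its untreated log2 fold change was 1.15. VEGFA, the main angiogenic growth factor, was at 49.2, 38.6, 34.8 and 51.8 CPM in WT with DMSO and at 188, 163, 167 and 172 CPM in PARP1-KO with DMSO. Its log2 fold change was 1.98 ± 0.12 (SE, edgeR adjusted p = 2.63e-19) in DMSO and 1.37 ± 0.12 in untreated cells. For each of GDF15, STC2 and VEGFA, as for DDIT4, all 20 PARP1-KO libraries lay above the 8 WT libraries without drug. How many of all tested genes separate in this way was not counted, so these values have no background share.

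INHBE, the inhibin βE subunit of activin E, and FGF21, a metabolic hormone of the FGF family, were read from few counts. INHBE was at 0.355, 0.527, 0 and 2.19 CPM in WT with DMSO, from at most 14 counts, and at 3.90, 5.01, 5.19 and 7.37 CPM in PARP1-KO with DMSO. The log2 fold change was 2.93 ± 0.64 (SE, edgeR adjusted p = 0.000388, or 0.0313 when only the 8 compared libraries were fitted). In untreated cells it was 1.32 (adjusted p = 0.102) with overlapping libraries. FGF21 had 0 counts in 8 of 20 WT libraries and at most 25 counts in any of them, whereas 0 PARP1-KO libraries were at 0. In untreated cells FGF21 had 0, 2, 0 and 1 counts in WT and 6, 29, 14 and 12 in PARP1-KO, with an edgeR adjusted p of 0.0349 (0.00971 by DESeq2). In DMSO, where WT replicate 2 had 20 counts of FGF21, the edgeR adjusted p was 0.391.

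Within each prefix of the library names (L01 to L03, whose meaning was not given in the sources used here), the 7 genes called in DMSO were higher in PARP1-KO in 3 of 3 prefixes. The smallest of these log2 values was 1.14, for CTH, and the largest was 4.80, for CHAC1.

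**Figure D2:**
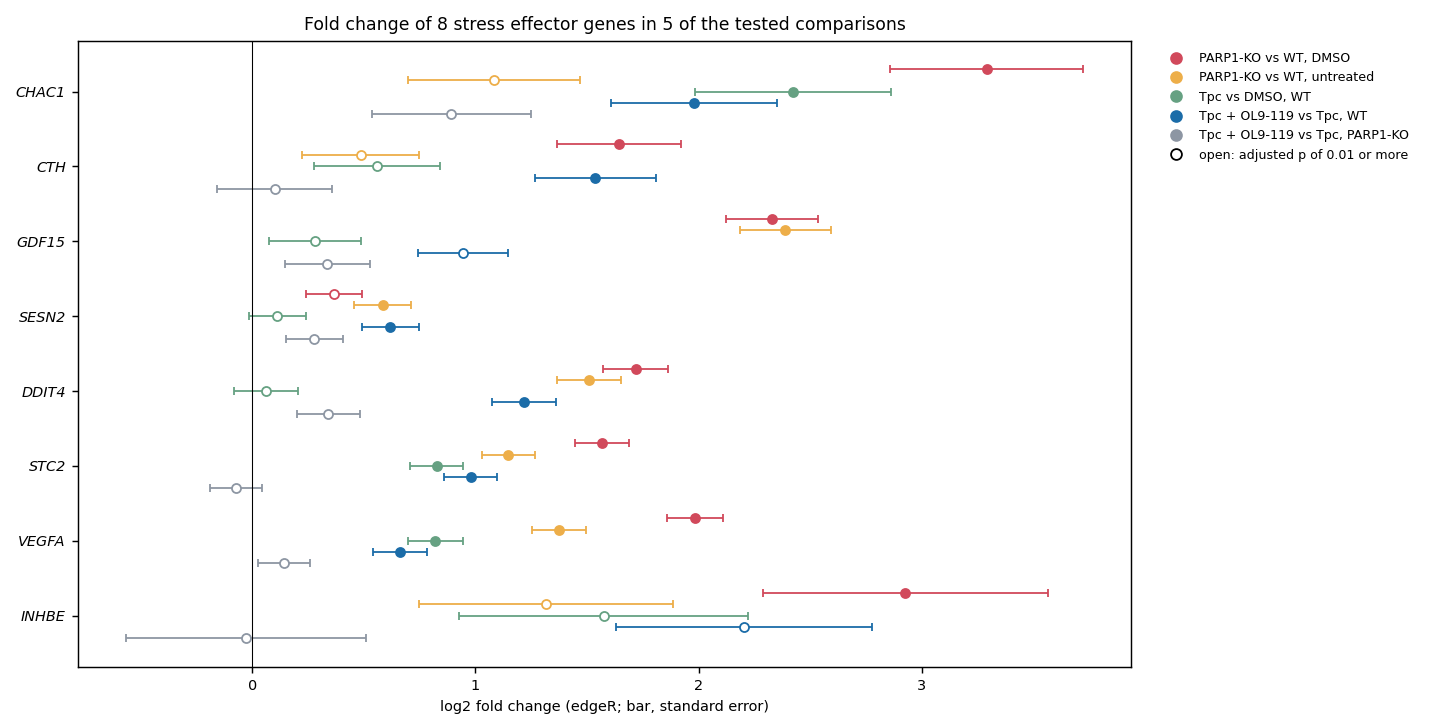
Log2 fold change with its standard error for 8 genes in 5 comparisons; a filled point passed an adjusted p below 0.01 and an open one did not. CBS and FGF21 are left out because most libraries held few counts of them. The comparison of Tpc + OL9-119 with Tpc has 6 filled points in WT and 0 in PARP1-KO.

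OL9-119 alone was the contrast that led to the choice of genes, so its values are a description with no test. In WT, all 4 OL9-119 libraries were above all 4 DMSO libraries for 8 of the 10 genes (3.12% of all tested genes did so), and CBS and FGF21 overlapped. CHAC1 was at 53.9, 41.4, 47.5 and 39.6 CPM with OL9-119, 33.6 times its DMSO mean and 11.5 times its untreated mean. The control level behind these CHAC1 ratios rests on 1 to 38 counts per DMSO library. CTH was at 19.1, 29.5, 24.1 and 25.1 CPM, 4.2 times its mean in DMSO and 1.96 times that in untreated cells. GDF15 was at 72.4, 59.0, 70.1 and 79.7 CPM (3.85 times DMSO). DDIT4 reached 231, 223, 254 and 267 CPM (3.81 times DMSO). Both these ratios changed little against untreated cells, at 3.56 and 3.39. The ratio to DMSO was 3.66 for STC2, 3.01 for VEGFA and 2.11 for SESN2. INHBE lay at 7.38 to 10.4 CPM with OL9-119 and at 0 to 2.19 CPM in DMSO.

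In PARP1-KO, OL9-119 alone left 0 of the 10 genes without overlap between the 4 treated and the 4 DMSO libraries (1.07% of all genes were higher without overlap). The ratios to DMSO were 1.45 for CHAC1, 1.25 for DDIT4, 1.20 for CTH, 1.15 for GDF15, 1.09 for SESN2, 1.04 for VEGFA, 1.03 for STC2 and 1.00 for INHBE. CHAC1 was at 16.8, 23.3, 20.1 and 22.1 CPM with OL9-119, above all 4 untreated libraries but within the range of the DMSO ones, where replicate 3 had 25.4 CPM. Against untreated PARP1-KO cells, 3 genes did not overlap (CHAC1, DDIT4 and STC2, against 1.96% of all genes). Whether the effect of OL9-119 alone differs between genotypes was not tested, since the rule used this contrast.

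The level of these genes in PARP1-KO without OL9-119 was set beside that in WT with it. In DMSO, PARP1-KO had 131% of the WT OL9-119 mean for VEGFA, 130% for GDF15, 86.2% for DDIT4, 80.8% for STC2 and 74.5% for CTH. It had 62.9% for INHBE, 61.0% for SESN2 and 31.1% for CHAC1. VEGFA was the only 1 of the 10 genes whose 20 PARP1-KO libraries (148.5 to 195.9 CPM) were above all 20 WT libraries (34.8 to 140.3 CPM). Those libraries include the ones with OL9-119 alone, and how many of all tested genes separate in this way was not counted. CHAC1, CTH, CBS, SESN2, STC2 and INHBE had their highest mean in a WT group with OL9-119, and DDIT4, GDF15, FGF21 and VEGFA in a PARP1-KO group. The spread of the 5 group means was smaller in PARP1-KO than in WT for each of the 10 genes. In PARP1-KO the highest group mean was 1.11 times the lowest for VEGFA, 1.16 for STC2, 1.21 for SESN2, 1.27 for both CTH and GDF15, 1.33 for INHBE, 1.5 for FGF21, 1.67 for DDIT4, 2.17 for CBS and 2.48 for CHAC1. In WT the same ratio ran from 2.59 for SESN2 to 33.6 for CHAC1. These ratios include the OL9-119 groups and have no test.

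**Figure D3:**
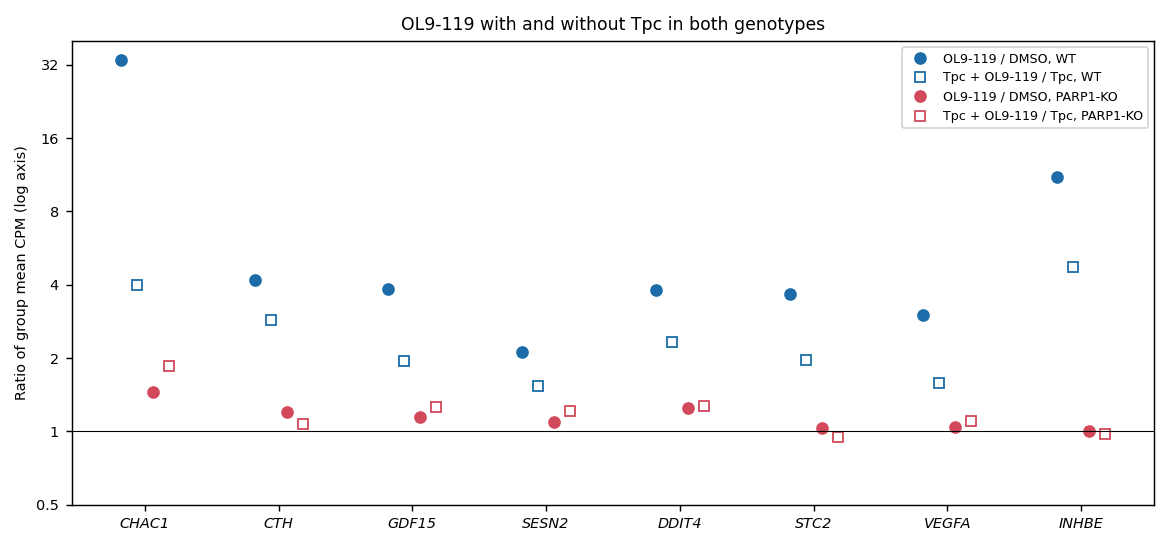
Ratio of group mean CPM with OL9-119 to that without it, on a log axis, for OL9-119 alone over DMSO (circles) and for Tpc + OL9-119 over Tpc (open squares), in WT (blue) and PARP1-KO (red). CBS and FGF21, read from few counts, are not drawn. The circles are the values behind the choice of genes. Among the 8 genes drawn, the WT circles span 2.11 (SESN2) to 33.6 (CHAC1) and the WT squares 1.53 (SESN2) to 4.74 (INHBE), and in PARP1-KO no ratio exceeds 1.85.

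OL9-119 was also added to Tpc, and this comparison shares no library with that of OL9-119 alone against DMSO. The genes were chosen with earlier results of the whole series known, so it is not independent evidence of their direction. In WT, 6 of the 10 genes were higher with Tpc + OL9-119 than with Tpc alone and 0 were lower, against 0.118% of all tested genes, or 34 genes, called higher. The 6 were CHAC1, CTH, SESN2, DDIT4, STC2 and VEGFA. The median log2 fold change was 1.10 over the 10 genes and 0.00 over all tested genes. In 7 of the 10 all 4 combination libraries were above all 4 Tpc libraries, which 1.88% of all genes showed.

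CHAC1 was at 6.62, 10.4, 6.65 and 7.09 CPM in WT with Tpc and at 14.98, 41.0, 34.5 and 31.9 CPM with Tpc + OL9-119. Replicate 1 of the combination was lowest but still above the Tpc libraries, and the log2 fold change was 1.98 ± 0.37 (SE, edgeR adjusted p = 0.00167). CTH was at 8.63, 6.84, 9.59 and 9.28 CPM with Tpc and at 35.3, 22.6, 19.9 and 20.9 CPM with the combination. Here replicate 1 of the combination was highest, and the log2 fold change was 1.54 ± 0.27 (SE, edgeR adjusted p = 0.000532). CBS was at 0 in 3 of 4 Tpc libraries and at 0, 42, 4 and 6 counts in the combination, with an adjusted p of 0.35.

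DDIT4 had the lowest adjusted p of the 10 genes in this comparison. DDIT4 was at 78.6, 58.6, 57.7 and 71.0 CPM with Tpc and at 118, 153, 191 and 156 CPM with the combination, a log2 fold change of 1.22 ± 0.14 (SE, edgeR adjusted p = 1.08e-07). SESN2 was at 90.0, 70.6, 86.6 and 78.4 CPM with Tpc and at 131, 134, 122.3 and 111 CPM with the combination. SESN2 also separated fully, with a log2 fold change of 0.62 ± 0.13 (SE, edgeR adjusted p = 0.00698, or 0.0174 when only the 8 compared libraries were fitted).

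STC2 was at 79.9, 75.8, 91.3 and 84.6 CPM with Tpc and at 156, 144, 186 and 168 CPM with the combination, a log2 fold change of 0.98 ± 0.12 (SE, edgeR adjusted p = 1.59e-07). VEGFA was at 81.1, 73.8, 75.0 and 77.8 CPM with Tpc and at 119, 110, 132 and 125.8 CPM with the combination, a log2 fold change of 0.66 ± 0.12 (SE, edgeR adjusted p = 0.000967). Both secreted factors were without overlap. GDF15 was at 27.0, 15.6, 20.9 and 25.01 CPM with Tpc and at 24.2, 34.4, 60.6 and 52.99 CPM with the combination. Replicate 1 of the combination lay within the Tpc range, and the log2 fold change of 0.94 ± 0.20 (SE) had an adjusted p of 0.0102 by edgeR, just over the threshold, and 0.00153 by DESeq2. INHBE was at 0.889 to 4.62 CPM with Tpc and at 6.04 to 12.6 CPM with the combination, without overlap, and its log2 fold change of 2.20 ± 0.57 (SE) had an adjusted p of 0.0855 by edgeR and 0.00352 by DESeq2. FGF21 had at most 7 counts in these 8 libraries.

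When each of the 8 libraries was left out in turn, 4 to 5 of the 10 genes were called, and DDIT4, STC2 and VEGFA were called each time. SESN2 was lost in all 8 fits (edgeR adjusted p from 0.0118 to 0.0885), and CHAC1 was lost in 4 of them, without WT Tpc replicate 1, 3 or 4 or combination replicate 2 (0.0136 to 0.0195). Without combination replicate 1, CTH had an adjusted p of 0.0166 and GDF15 one of 0.000554 by edgeR.

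In WT, the means with Tpc + OL9-119 were set beside those with OL9-119 alone. FGF21, at 40.1% of the OL9-119 mean, and CBS, at 494%, were read from few counts. The combination had 61.3% of the OL9-119 mean for GDF15, 63.4% for DDIT4, 67.0% for CHAC1 and 78.4% for SESN2, and between 92.7% and 113% for VEGFA, STC2, CTH and INHBE. DDIT4 and SESN2 did not overlap between these groups, and CHAC1 did, through combination replicate 2. How many of all tested genes do not overlap between these groups was not counted. The percentages and ranges given here have no test, since they use the libraries of OL9-119 alone.

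In PARP1-KO, adding OL9-119 to Tpc gave 0 calls among the 10 genes, and 0 of all tested genes were called by edgeR, which is 0%. By edgeR 1186 genes had an unadjusted p below 0.05, and DESeq2 called 1 gene, not among the 10. CHAC1 had the largest value of the 10, with 12.001, 11.3, 9.17 and 6.78 CPM under Tpc and 20.3, 23.6, 7.71 and 21.1 CPM under the combination. Replicate 3 of the combination lay within the Tpc range, and the log2 fold change was 0.89 ± 0.36 (SE, adjusted p = 1). CHAC1, SESN2 and DDIT4 had an unadjusted p below 0.05, against 4.1% of all genes, with log2 fold changes of 0.28 for SESN2 and 0.34 for DDIT4. STC2 (-0.08), VEGFA (0.14) and INHBE (-0.03) lay close to 0.

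The effect of OL9-119 on top of Tpc was then compared between genotypes, at Tpc doses that differed. STC2 had the lower effect in PARP1-KO, with a difference of log2 fold changes of -1.05 ± 0.17 (SE, edgeR adjusted p = 0.000485). It was 1 of 2 genes of the whole table called in this comparison (0.00692%). DDIT4 had a difference of -0.88 ± 0.20 (SE) that missed the threshold (edgeR adjusted p = 0.131) and passed it with DESeq2 (0.00958). CTH had -1.44 ± 0.37 (adjusted p = 0.395), CHAC1 -1.09 ± 0.51 (0.612), VEGFA -0.52 ± 0.17 (0.553) and GDF15 -0.61 ± 0.28 (0.612). So 9 of the 10 values were below 0 and 1 was called, and the loss of a call in PARP1-KO is not in itself a difference for the others.

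Tpc alone was compared with DMSO to ask what TOP1 poisoning does to these genes. In WT, 3 of the 10 genes were higher with Tpc than with DMSO and 0 were lower, against 0.629% of all genes called higher. CHAC1 had a log2 fold change of 2.42 ± 0.44 (SE, edgeR adjusted p = 0.000224), from the DMSO and Tpc values given above. STC2 had 0.83 ± 0.12 (adjusted p = 2.61e-06) and VEGFA 0.82 ± 0.12 (adjusted p = 4.98e-06), all 3 without overlap (3.19% of all genes were higher without overlap). The other 7 were not called, with GDF15 at 0.28, SESN2 at 0.11 and DDIT4 at 0.06.

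These 3 calls depended on the control and the fit. Against untreated WT cells 0 of the 10 genes were called, with a log2 fold change of 0.98 for CHAC1 (edgeR adjusted p = 0.195), 0.48 for STC2 (0.0154) and 0.28 for VEGFA (0.249). When only the 8 compared libraries were fitted, 0 were called, with adjusted p of 0.16, 0.0227 and 0.0333 in that order by edgeR. CHAC1 was also lost with edgeR's newer quasi-likelihood setting (adjusted p = 0.0156). In PARP1-KO at 50 nM Tpc, 0 of the 10 genes and 0 of all tested genes were called by edgeR (0%) and by DESeq2, with 1101 genes at an unadjusted p below 0.05. DDIT4 had the largest shift among the well-counted genes other than CHAC1, from 251, 210, 181 and 199 CPM in DMSO to 154, 186, 132 and 158 CPM in Tpc. These overlapped by replicate 2 of Tpc, and the log2 fold change was -0.42 ± 0.14 (SE, unadjusted p = 0.00414, adjusted p = 1).

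The Tpc effect against DMSO was lower in PARP1-KO than in WT for 2 genes, against 0.173% of all genes called in either direction. The difference was -2.95 ± 0.57 (SE, edgeR adjusted p = 0.00238) for CHAC1 and -0.91 ± 0.17 (SE, edgeR adjusted p = 0.00142) for VEGFA. STC2 had -0.68 ± 0.17 (SE, adjusted p = 0.0494 by edgeR and 0.00274 by DESeq2). Against untreated cells the differences were -0.74 for CHAC1 (adjusted p = 0.806) and -0.30 for VEGFA (adjusted p = 0.71), and 0 of the 10 genes were called. When only the 16 compared libraries were fitted, adjusted p was 0.0307 for CHAC1 and 0.0192 for VEGFA. CHAC1 was also lost without WT DMSO replicate 2, WT Tpc replicate 2 or PARP1-KO DMSO replicate 3 (edgeR adjusted p from 0.0104 to 0.0206). Dose and genotype cannot be told apart here.

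The solvent was compared with no treatment because the above values turn on it. In WT, 0 of the 10 genes passed (edgeR, 0% of all genes), but 7 had an unadjusted p below 0.05, against 10.8% of all genes, and DESeq2 called 9 genes in all, VEGFA among them. VEGFA was at 48.6, 63.7, 78.5 and 63.4 CPM untreated and at 49.2, 38.6, 34.8 and 51.8 CPM in DMSO, a log2 fold change of -0.54 ± 0.12 (SE, adjusted p = 0.18 by edgeR). By DESeq2 it was -0.53 (adjusted p = 0.00905). CTH had -1.11 ± 0.28 (SE, adjusted p = 0.203) and CHAC1 -1.45 ± 0.45 (SE, adjusted p = 0.276). STC2 had -0.35, INHBE -1.34 and SESN2 0.30. In PARP1-KO, 0 of the 10 genes and 0 of all genes were called by either tool, 538 genes had an unadjusted p below 0.05 by edgeR, and the 5 well-counted genes GDF15, SESN2, DDIT4, STC2 and VEGFA had log2 fold changes between -0.18 and 0.08. CHAC1 had 0.77 ± 0.36 there (SE, edgeR unadjusted p = 0.0382, adjusted p = 1), with overlapping libraries and a sign opposite to that in WT.

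The comparisons with DMSO share the DMSO libraries, and Tpc + OL9-119 shares the Tpc libraries with Tpc against DMSO, so a low or high control moves several of them at once. Side by side for STC2, the log2 fold change was 1.57 for PARP1-KO against WT in DMSO, 0.83 for Tpc in WT and 0.98 for OL9-119 on top of Tpc in WT. For DDIT4 the same values were 1.72, 0.06 and 1.22, so its Tpc value lay near 0 while the others did not. For CHAC1 they were 3.29, 2.42 and 1.98.

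The regulators upstream of these genes were read from a list of 13 integrated stress response genes. In DMSO, 8 of 13 were higher in PARP1-KO and 0 lower, against 6.67% and 5.75% of all genes, with a median log2 fold change of 1.27 against 0.19 over all genes. PPP1R15A, which brings a phosphatase back to eIF2α, had the largest (2.21 ± 0.12 SE), and ATF4 the smallest of those called (0.74 ± 0.14). DDIT3 had 1.71 and TRIB3, a pseudokinase that ATF4 and DDIT3 induce, had 1.27. In WT, adding OL9-119 to Tpc raised 3 of 13 (0.118% of all genes), DDIT3 by 1.30 ± 0.18, TRIB3 by 1.01 ± 0.14 and CEBPG, a C/EBP partner, by 0.47 ± 0.095 (log2, SE). The ATF4 mRNA had 0.39 ± 0.14 (SE, edgeR adjusted p = 0.268) in that comparison. Tpc in WT raised 4 of 13 (0.629% of all genes), led by ATF3 at 1.98 ± 0.11 (SE), while DDIT3 (0.13) and TRIB3 (0.04) lay near 0.

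Of 23 ATF4 targets in amino acid supply, 12 were higher and 1 lower in PARP1-KO with DMSO, against 6.67% and 5.75% of all genes. Their median log2 fold change was 0.48, against 0.19 over all genes. LARS1, the cytosolic leucyl-tRNA synthetase, had the largest value at 1.06, and ALDH18A1, in proline synthesis, the lowest at -0.55. With OL9-119 on top of Tpc in WT, 6 of 23 rose and 0 fell, against 0.118% and 0.0622% of all genes. SLC7A11, the cystine importer that feeds the same cysteine pool as CTH, rose most, by 1.52 ± 0.21 (SE, edgeR adjusted p = 4.5e-06). GARS1, the glycyl-tRNA synthetase, rose least of those called (0.54). ASNS, asparagine synthetase, was at no more than 7.69 CPM in any library and passed in no tested comparison named here.

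Lists close to the members in metabolism, growth control and sequence had these counts. Of 15 other genes of cysteine and glutathione metabolism, 0 rose and 1 fell in PARP1-KO with DMSO, SUOX (sulfite oxidase) at -1.28 ± 0.27 (SE), and 0 changed with Tpc or with OL9-119 on top of it in WT. Of 19 genes of mTORC1 control, 1 was higher (SEH1L, a GATOR2 subunit, 0.57) and 2 lower in PARP1-KO with DMSO, of which SESN3, a paralogue of SESN2, was lowest at -0.60. Over all genes 6.67% were higher and 5.75% lower, so the counts of these 15 and 19 genes lay near the background. None of the 19 passed with Tpc or with OL9-119 on top of Tpc in WT. Of 14 tested paralogues of the members, 2 were higher and 3 lower in PARP1-KO with DMSO, with a median of -0.0023 against 0.19 over all genes. INHBA, the inhibin βA subunit, had 2.40 ± 0.39 (SE), and VEGFB had -1.57 ± 0.20 (SE), opposite to VEGFA. INHBA also rose with Tpc in WT (2.05 ± 0.39 SE).

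Of 11 tested receptors for the secreted members, 0 were higher and 1 was lower in PARP1-KO with DMSO, NRP1, a co-receptor of VEGFA, at -0.82 ± 0.16 (SE). These counts are near the 6.67% and 5.75% of all genes. Untreated, where 5.97% of all genes were higher and 5.74% lower, 1 was higher (ACVR1C, an activin-type receptor, 1.24) and 2 were lower, with RET, the signalling partner of the GDF15 receptor, at -1.36. None passed with Tpc or with OL9-119 on top of Tpc in WT.

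Lists for other pathways known to act on these genes were read in the same way. Of 14 hypoxia targets, 8 were higher and 0 lower in PARP1-KO with DMSO (6.67% and 5.75% of all genes), led by NDRG1 at 2.38 ± 0.15 (SE). In WT, 0 of the 14 passed with Tpc or with OL9-119 on top of Tpc. Of 18 p53 targets, 11 were higher and 1 (FAS) lower in PARP1-KO with DMSO, GADD45A highest at 1.73 ± 0.14 (SE). Of the same 18, 3 rose with Tpc in WT (0.629% of all genes), GADD45A by 1.39 ± 0.14 (SE) and PLK2 by 0.55 among them. With OL9-119 on top of Tpc, 0 of the 18 rose. CDKN1A (p21) had 0.40 in PARP1-KO with DMSO, 0.09 with Tpc in WT and -0.12 with OL9-119 on top of Tpc. A list of 14 genes held ER chaperones and other genes of the unfolded protein response. Of these, 1 was higher (HERPUD1, 0.65) and 6 lower in PARP1-KO with DMSO, PDIA4 lowest at -1.26 ± 0.12 (SE). HSPA5 (BiP) had 0.02. With OL9-119 on top of Tpc in WT, 1 of 14 rose, against 0.118% of all genes. That gene was XBP1, the transcription factor of the IRE1 branch, at 0.70 ± 0.13 (SE).

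**Figure D4:**
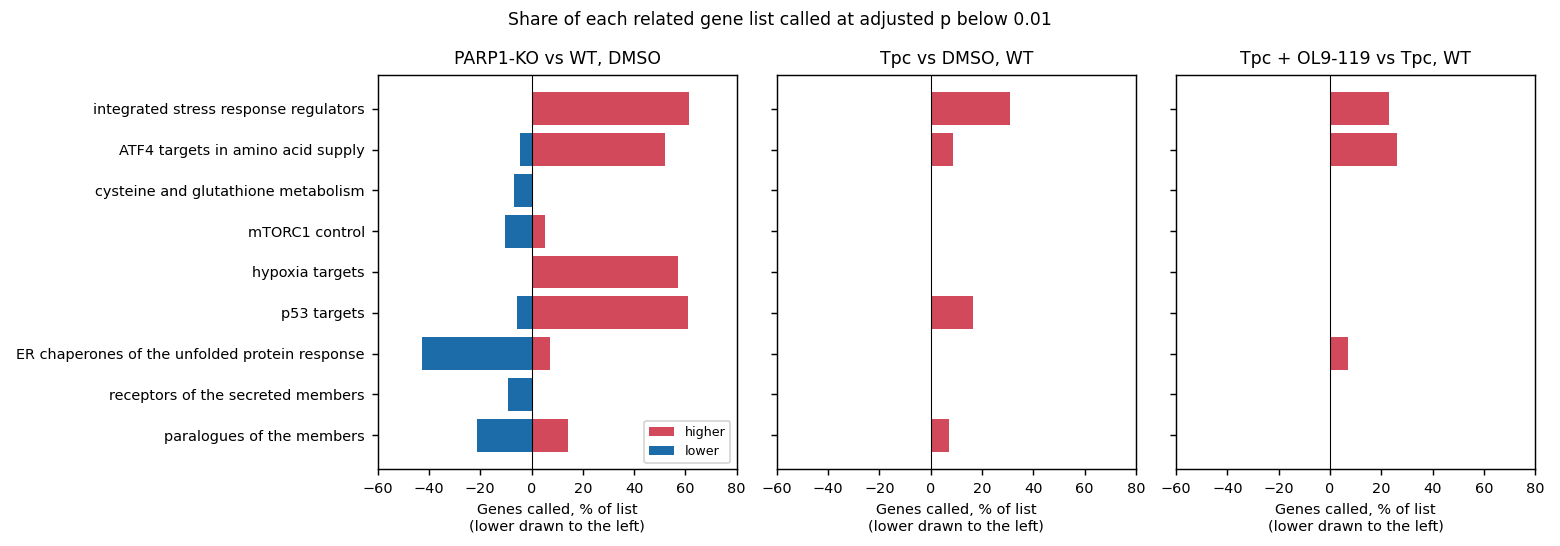
Share of each list of related genes called higher (red, right) or lower (blue, left) at an adjusted p below 0.01 in 3 comparisons. Hypoxia and p53 lists have bars in PARP1-KO against WT (8 of 14 and 11 of 18 higher), and neither has one for OL9-119 on top of Tpc.

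The pattern of the genes over the 10 group means of log2 CPM was compared with that of 6636 genes with enough counts and spread. These are descriptions over 10 points that share genotype and treatment. DDIT4 was most like TRIB3 (Pearson r = 0.987), TLK2 (0.976) and DDIT3 (0.976). CHAC1 was most like SLC7A5 (0.970), a leucine transporter subunit, TBILA (0.970) and TEC (0.969). CTH was most like CALCB (0.986), then INHBE (0.966) and SPG11 (0.962). GDF15 was most like NUPR1 (0.983), a stress-induced chromatin protein, then MRAS (0.978) and ALMS1-IT1 (0.978). SESN2 was nearest to NHSL1 (0.965), TEC (0.964) and GIN1 (0.955), and VEGFA to ARHGEF2 (0.995), PRKACB-DT (0.990) and C5orf34 (0.990). Among the 10 genes themselves, STC2 and INHBE had an r of 0.987, CHAC1 and INHBE 0.944, and CHAC1 and GDF15 0.654. CHAC1 stood highest in WT with OL9-119, where GDF15 was below every PARP1-KO group mean.

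Ordered by level, the groups formed overlapping runs for most genes, with few gaps. For DDIT4 the 3 WT groups without OL9-119 (64.1 to 72.0 CPM) overlapped each other and were separated by a gap from the next group, WT with Tpc + OL9-119 (155 CPM). For STC2, untreated WT (59.4 CPM), WT with Tpc (82.9 CPM) and untreated PARP1-KO (131.5 CPM) were separated from each other, and every group above the last overlapped its neighbour. For VEGFA the gaps lay between WT with Tpc (76.9 CPM) and WT with the combination (121.7 CPM), and between WT with OL9-119 (131 CPM) and PARP1-KO with Tpc (162 CPM). For SESN2 the only gap was below WT with OL9-119 (159 CPM), and for INHBE it was below the same group (8.53 CPM). CHAC1, CTH, GDF15, FGF21 and CBS had no neighbours without overlap.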

How the data were processed

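The libraries were poly(A)-selected, directional and paired-end. According to the study's methods and the labels, reads were checked with FastQC 0.11.9, aligned to hg38 with STAR 2.7.8 and its gene counting, and examined with Picard 2.26.6. The strand setting of the counting is not given in the sources used here. The deposited values are raw counts per Ensembl gene, and the authors did not normalize them. Symbols came from GENCODE 44, which matched 57754 of 58395 genes. CTH, GDF15, VEGFA and INHBE overlap an annotated non-coding gene; those in the table held at most 72 counts in all.

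A gene was kept when its counts over all 40 libraries came to 10 or more. Library totals were scaled by TMM and fitted with edgeR 4.0.16 (R 4.3.3), with the 10 groups in 1 quasi-likelihood model and the Benjamini-Hochberg adjusted p called below 0.01. Levels are CPM of the scaled total, except those of cell type markers, which are CPM of the unadjusted total. DMSO was the comparator because every drug carried it, and untreated cells were the alternative. The 10 genes and the 9 related lists were chosen with earlier results of these data known. Named genes were the 10, PARP1, TOP1, TDP1, ATF4, DDIT3, TRIB3, ASNS, HSPA5, CDKN1A, the highest and lowest called gene of each list, and the 3 genes most like each of 6 members over group means, among genes with a mean of at least 50 counts and an SD of at least 0.25 in log2 CPM. DESeq2 1.42.0, other filters, other normalizations, a replicate block, and single libraries left out were run as alternatives. The number of detected genes as a covariate was added after seeing the data. After the main fit, the test was also tried on counts simulated from the means and spread of these data. The main fit did not pair the libraries by replicate number.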

Additional observations from a re-analysis of the deposited data

Results flagged for a closer look

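In 9 of 100 groups of 4 libraries, the highest or lowest level of a gene stood apart from the other 3 by Dixon's criterion, where chance gives about 1 in 20. CBS was at 1.14 CPM in WT OL9-119 replicate 1 (17 counts), against at most 0.106 CPM in the others, and at 0.645 CPM in WT Tpc replicate 4 (5 counts), against 0. FGF21 was at 2.11 CPM in WT DMSO replicate 2 (20 counts), against at most 0.313 CPM. INHBE was at 4.62 CPM in WT Tpc replicate 1 (60 counts), against at most 1.42 CPM. CHAC1 was at 10.4 CPM in WT Tpc replicate 2, against 6.62 to 7.09 CPM. DDIT4 was lowest at 47.3 CPM in WT DMSO replicate 1, against 68.2 to 71.3 CPM. SESN2 was lowest at 58.2 CPM in WT DMSO replicate 4, against 79.9 to 82.5 CPM, and at 84.3 CPM in PARP1-KO Tpc + OL9-119 replicate 3, against 118 to 120 CPM. GDF15 was lowest at 66.8 CPM in PARP1-KO DMSO replicate 3, against 97.3 to 102.97 CPM.

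An effect differed between the genotypes in 3 cases by the test of the difference itself (edgeR adjusted p below 0.01). The Tpc effect against DMSO was lower in PARP1-KO by a log2 difference of -2.95 for CHAC1 and -0.91 for VEGFA, at Tpc doses of 50 nM and 100 nM. The effect of OL9-119 on top of Tpc was lower in PARP1-KO by -1.05 for STC2. The CHAC1 and VEGFA differences were not called against untreated cells, as given above, and the cause was not tested.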

How the results depend on the processing

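Under the alternatives other than leaving out a library, the 24 called values of the 10 genes kept their direction in 269 of 269 fits, and 15 of these missed the threshold. For Tpc against DMSO in WT, 3 genes were called, against 0 with the untreated comparator and 0 with only the compared libraries. For the genotype difference of the Tpc effect, 2 were called, against 1 with edgeR's newer quasi-likelihood setting, 0 with the untreated comparator and 0 with only the compared libraries. For the genotype difference of the effect of OL9-119 on top of Tpc, 1 was called, against 2 with DESeq2, 2 with no filter and 2 with length and GC offsets, DDIT4 being added. For DMSO against untreated in WT, 0 were called and 1 with DESeq2. The cause was not tested.

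With 1 library left out, the genes called were 7 to 7 for PARP1-KO against WT in DMSO, 5 to 6 untreated, 3 to 3 for Tpc in WT, 4 to 5 for OL9-119 on top of Tpc in WT, 1 to 2 and 1 to 1 for the genotype differences of Tpc and OL9-119, and 0 to 0 in the other comparisons. Values not called changed sign in 28 of 744 fits with 1 library left out. For DMSO against untreated these ran from -0.27 to 0.040 for GDF15 and -0.55 to 1.52 for CBS in WT, and from -0.72 to 0.021 for CBS, -0.19 to 0.15 for CTH and -0.074 to 0.10 for DDIT4 in PARP1-KO. For Tpc they ran from -0.052 to 0.12 for DDIT4 and -2.19 to 1.81 for FGF21 in WT, from -0.0055 to 0.30 for INHBE in PARP1-KO, and from -2.39 to 1.61 for FGF21 in the genotype difference. For OL9-119 on top of Tpc they ran from -0.61 to 1.14 for FGF21 in WT, from -0.71 to 0.31 for FGF21 and -0.21 to 0.069 for INHBE in PARP1-KO, and from -1.11 to 0.65 for FGF21 in the genotype difference. Under the other alternatives, values not called changed sign in 18 of 861 fits. With the untreated comparator for Tpc these were, in WT, CTH (-0.55), FGF21 (1.97) and DDIT4 (-0.11), in PARP1-KO CHAC1 (0.24), and in the genotype difference CTH (0.80), FGF21 (-2.0031) and INHBE (0.15). With the number of detected genes as covariate they were FGF21 in PARP1-KO against WT in DMSO (-0.15), in OL9-119 on top of Tpc in WT (0.33), in PARP1-KO (-0.32) and in its genotype difference (-0.66), DDIT4 for Tpc in WT (-0.0006), and CBS for DMSO in WT (0.035). CBS in DMSO against untreated in WT also turned with the library prefix (0.050) and the newer setting (0.22), and FGF21 for OL9-119 on top of Tpc in PARP1-KO with length and GC offsets (-0.065).

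Between compared groups, libraries of the same replicate number had correlations from -0.21 to 0.48, and the main fit used no pairing. GDF15 was lowest in replicate 3 of PARP1-KO with DMSO, Tpc, OL9-119 and the combination (66.8, 60.7, 81.4 and 80.3 CPM). Whether libraries with the same number were handled together was not tested. With the replicate block, OL9-119 on top of Tpc in WT called 7 of the 10 genes, GDF15 being added (edgeR adjusted p = 0.00683), no other call changed, and FGF21 turned sign for OL9-119 on top of Tpc in PARP1-KO (-0.11) and for the genotype difference of Tpc (-0.030).

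Over all genes, calls moved by more than 1.5 times in these cases. PARP1-KO against WT gave 3592 in DMSO and 1636 with only the compared libraries, and 3386 and 2213 untreated. Tpc in WT gave 285, 517 with DESeq2, 521 with offsets and 56 with only the compared libraries. OL9-119 on top of Tpc in WT gave 52, 106 with DESeq2, 88 with offsets, 79 with no filter, 32 without WT Tpc replicate 1, and 33 without WT Tpc replicate 3 or combination replicate 1. Comparisons with 0 calls gave, for Tpc in PARP1-KO, 6 with no filter and 4 untreated; for OL9-119 on top of Tpc in PARP1-KO, 4 with no filter and 0 to 1 otherwise; and for DMSO in WT, 9 with DESeq2 and 1 with the newer setting. The genotype difference of Tpc gave 50, 88 with DESeq2, 79 with no filter, and 29 both untreated and with only the compared libraries. That of OL9-119 gave 2 (1 higher), 4 with RLE scaling (1 higher), and 2 to 13 otherwise. Depth limits CBS, FGF21 and INHBE, with 333, 380 and 2227 counts in all.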
